A study of Mus musculus with 6 samples.

Results

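The 9 genes described here form the core of Hedgehog reception and response: Ptch1, Hhip, Boc, Cdon and Gas1 at the cell surface, Smo as the signalling receptor, and the transcription factors Gli1, Gli2 and Gli3. They were chosen by name, with earlier results of these data known. All 9 were found among the 27179 genes counted in the series, and all 9 were among the 11934 genes abundant enough to be tested. Transcript levels were measured by RNA-seq in immortalized mouse embryonic fibroblast (MEF) lines of the C57BL/6 strain, grown with serum, with 2 libraries from separate RNA preparations for each of 3 lines. Every line lacks the period genes (per1-/-, per2-/-). Cry/Per_KO cells also lack the cryptochromes (cry1-/-, cry2-/-), Per/Nr1d_KO cells also lack the nuclear receptors of the REV-ERB family (nr1d1-/-, nr1d2-/-), and Cry/Per/Nr1d_KO cells lack all of these. The Cry/Per/Nr1d_KO line is 1 clone obtained by lentiviral CRISPR editing of Nr1d1 and Nr1d2 in Cry/Per_KO cells, and since each genotype is represented by 1 line, genotype and line cannot be told apart.

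In the absence of ligand, PTCH1 holds the membrane protein SMO inactive. Binding of a Hedgehog ligand to PTCH1, helped by the co-receptors BOC, CDON and GAS1, frees SMO to enter the primary cilium, where it switches GLI2 and GLI3 from repressor forms to activators. Gli1, Ptch1 and Hhip are classical target genes of the pathway, so the receptor PTCH1 and the ligand trap HHIP also feed back on it. Fibroblasts carry a cilium, and MEF are a common model for this pathway.

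The names of the deposited count tables gave the opposite identity to the labelled Cry/Per/Nr1d_KO pair and the labelled Cry/Per_KO pair, whereas the Per/Nr1d_KO pair carried no such conflict. The clock gene Arntl, which NR1D is known to repress, gave 1191 and 1171 normalized counts in labelled Cry/Per/Nr1d_KO, 2176 and 2208 in labelled Cry/Per_KO, and 2493 and 2455 in Per/Nr1d_KO. It was thus lowest in a pair labelled as lacking NR1D. Transcripts of Nr1d1, Nr1d2, Per1, Per2, Cry1 and Cry2 all gave at least 792 reads in every library, so the loss of a transcript could not serve as a check. Nr1d1 stood at 3158 and 3146 normalized counts in labelled Cry/Per/Nr1d_KO, 9337 and 9249 in labelled Cry/Per_KO, and 5359 and 4838 in Per/Nr1d_KO. Cry1, another gene that NR1D represses, stood at 1698 and 1724, 5323 and 5478, and 1535 and 1592 in the same order. Arntl and Cry1 were thus both lower in labelled Cry/Per/Nr1d_KO than in labelled Cry/Per_KO, which goes against the labels of these 2 pairs, as the names of the tables do, so these values favour the exchanged reading. The 2 pairs are therefore called labelled Cry/Per_KO and labelled Cry/Per/Nr1d_KO throughout. An exchange of the labels turns the sign of every difference between them, and both readings are given for the counts of genes called. Library totals ran from 53764390 to 85927236 counts. Of 11 fibroblast markers, 8 reached 100 normalized counts in every library, among them Col1a1, Fn1 and Vim, while Thy1 and Lum stayed under 10 and Dcn ran from 43.4 to 139. The summed fibroblast markers ran from 882452 to 1023559 in the labelled Cry/Per_KO and Cry/Per/Nr1d_KO libraries and from 1778201 to 1797308 in Per/Nr1d_KO, but the list moved both ways there: Col1a1, Col1a2, Col3a1, Col5a1 and Fn1 were higher than in every other library, whereas Vim, Pdgfrb and S100a4 were lower. Col3a1 gave 42800 and 43800 in Per/Nr1d_KO, 836 and 801 in labelled Cry/Per/Nr1d_KO, and 289 and 296 in labelled Cry/Per_KO. The epithelial, endothelial and muscle lists summed to at most 158 in any library, and the haematopoietic list, mostly Cd68, to between 181 and 326. Neural markers, mostly Map2 and Tubb3, summed to between 5661 and 5969 in the other two lines and to 1157 and 1169 in Per/Nr1d_KO, with Sox10 and Gfap under 5 in each library. The part of these marker differences in the results was not tested.

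Promoter windows of 250 bases before an annotated start were read from RefSeq (GRCm38.p6) for 7 of the 9 genes, and no window was used for Gli1 and Boc. Those of Ptch1 and Gli2, the receptor and the GLI factor that rose in Per/Nr1d_KO cells, are shown beside that of Gli3, which did not. Each is on the strand of its gene, 5′ to 3′, and the capitals mark CG dinucleotides. The Ptch1 window is chr13:63565736-63565985 (minus strand), the Gli2 window chr1:119053620-119053869 (minus strand) and the Gli3 window chr13:15463473-15463722 (plus strand), and none of the 3 overlaps an exon of the GENCODE vM21 basic annotation. The spans of Ptch1 and Gli2 begin, on the minus strand, at 63573460 and 119054405. Their windows thus lie inside the genes, before internal starts, whereas the Gli3 window directly precedes the first base of its gene (15463723).
Ptch1 promoter: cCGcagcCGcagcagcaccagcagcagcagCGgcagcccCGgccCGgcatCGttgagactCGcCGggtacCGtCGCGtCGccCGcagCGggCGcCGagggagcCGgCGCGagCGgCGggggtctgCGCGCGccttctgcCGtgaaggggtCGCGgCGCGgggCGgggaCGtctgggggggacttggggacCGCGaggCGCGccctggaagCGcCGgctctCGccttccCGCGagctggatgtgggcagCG
Gli2 promoter: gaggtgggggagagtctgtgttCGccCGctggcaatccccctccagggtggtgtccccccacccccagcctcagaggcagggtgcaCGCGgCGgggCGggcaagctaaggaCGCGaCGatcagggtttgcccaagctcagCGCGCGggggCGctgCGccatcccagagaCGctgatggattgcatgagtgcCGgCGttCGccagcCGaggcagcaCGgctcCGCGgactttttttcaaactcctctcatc
Gli3 promoter: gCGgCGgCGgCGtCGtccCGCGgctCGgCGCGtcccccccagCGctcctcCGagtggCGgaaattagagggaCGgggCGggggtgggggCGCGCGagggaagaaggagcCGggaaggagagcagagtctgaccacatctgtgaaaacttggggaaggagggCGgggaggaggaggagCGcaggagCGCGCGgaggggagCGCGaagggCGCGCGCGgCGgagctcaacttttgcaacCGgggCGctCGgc
These windows hold 41, 22 and 34 CG dinucleotides, against a median of 6 over the 32851 RefSeq windows. The other windows hold 15 (Smo), 28 (Hhip), 10 (Gas1, which also rose) and 1 (Cdon), so the genes that rose held 41, 22 and 10 and those that fell 28 and 1. However, these are unlike regions. That of Gas1 overlaps annotated exons over all 250 bases. That of Cdon overlaps exons over 31 bases and lies inside the gene, at chr9:35451826-35452075 (plus strand). No difference between genes that rose and genes that fell is therefore read from these counts. The GLI motif GACCACCCA, the E-box CACGTG recognised by CLOCK-BMAL1, and the NR1D and ROR core AGGTCA were searched on both strands of the full windows of 300 bases. No match to any of these letters was found in the 7 windows. The search did not cover the bases before the outermost starts of Ptch1, Gli2 and Cdon. Of all windows, 0.253% hold the GLI motif, 7.15% the E-box and 16.3% the core.

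Values below are normalized counts, which are reads scaled by the TMM method to the mean effective library size. Differences are log2 fold changes with their standard error, and p-values come from the quasi-likelihood test of edgeR, adjusted over all 11934 genes by the Benjamini-Hochberg method. A gene was called changed at an adjusted p under 0.05 and a log2 fold change above 0.81 in size, which is called the limit on the fold below. Since the RNA came from whole cultures, fewer cells of a type and less RNA per cell cannot be told apart.

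Ptch1, which encodes the receptor that restrains SMO, was high in Per/Nr1d_KO cells. This gene (Entrez Gene 19206, chr13:63508328-63573460, GRCm38) gave 1474 and 1439 normalized counts in labelled Cry/Per/Nr1d_KO, 1716 and 1733 in labelled Cry/Per_KO, and 7600 and 7208 in Per/Nr1d_KO. The Per/Nr1d_KO libraries lay far above the other 4, which were close together. Ptch1 rose 5.08-fold in Per/Nr1d_KO relative to labelled Cry/Per/Nr1d_KO (log2 fold change 2.34 ± 0.053, edgeR adjusted p = 3.1e-15) and 4.29-fold relative to labelled Cry/Per_KO (2.10 ± 0.052, adjusted p = 8.0e-15). Between the other two lines, its log2 fold change was 0.24 ± 0.055, under the limit on the fold.

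Hhip, a membrane-anchored protein that binds and sequesters Hedgehog ligands, showed the opposite pattern. Its reads (Entrez Gene 15245, chr8:79965850-80058060) numbered 328 and 323 in labelled Cry/Per/Nr1d_KO, 462 and 484 in labelled Cry/Per_KO, and 0 and 2 in Per/Nr1d_KO. In normalized counts these were 291 and 359, 514 and 475, and 0 and 1.58. Hhip was thus all but undetected in Per/Nr1d_KO cells, where a count of 0 allows up to 3 reads, or 3.8 normalized counts in that library. Because a fitted fold change at so few reads depends on the model's prior count, the ratio of summed reads is given: Hhip was 330-fold lower than in labelled Cry/Per/Nr1d_KO (95% interval 91.1 to 2730, counting error only) and 507-fold lower than in labelled Cry/Per_KO (140 to 4200). Both falls were called (edgeR adjusted p = 6.5e-12 and 7.5e-13). Their size depended on the library, since both reads came from Per/Nr1d_KO replicate 2. The fitted log2 fold changes were -8.20 and -8.82 with all libraries. They were -7.57 and -8.19 without Per/Nr1d_KO replicate 1, and -11.26 and -11.87 without replicate 2. Labelled Cry/Per_KO stood above labelled Cry/Per/Nr1d_KO by a log2 fold change of 0.61 ± 0.12, which did not reach the limit on the fold.

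Boc differed most between the lines among the co-receptors. This immunoglobulin-superfamily protein (Entrez Gene 117606, chr16:44485045-44558870) gave 371 and 379 normalized counts in labelled Cry/Per/Nr1d_KO, 30.1 and 31.4 in labelled Cry/Per_KO, and 2671 and 2796 in Per/Nr1d_KO. The 3 lines did not overlap, and replicate libraries lay close together in each. Boc was 12.1-fold lower in labelled Cry/Per_KO than in labelled Cry/Per/Nr1d_KO (log2 fold change -3.60 ± 0.14, edgeR adjusted p = 6.3e-12). In Per/Nr1d_KO it rose 7.3-fold over labelled Cry/Per/Nr1d_KO (2.87 ± 0.073, adjusted p = 1.4e-14) and 88.5-fold over labelled Cry/Per_KO (6.47 ± 0.11, adjusted p = 8.5e-17). It was the one member called in all 3 comparisons.

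Cdon, a co-receptor closely related to Boc, moved the other way in Per/Nr1d_KO. It gave 14105 and 14456 normalized counts in labelled Cry/Per/Nr1d_KO, 17379 and 16622 in labelled Cry/Per_KO, and 5585 and 5607 in Per/Nr1d_KO (Entrez Gene 57810, chr9:35421528-35507652). It was lowest in Per/Nr1d_KO, where the replicate libraries were almost equal. Cdon fell by 1.35 ± 0.044 on the log2 scale relative to labelled Cry/Per/Nr1d_KO (edgeR adjusted p = 2.8e-13) and by 1.60 ± 0.044 relative to labelled Cry/Per_KO (adjusted p = 2.8e-14). Tested genes of chromosome 9 as a whole were lower in Per/Nr1d_KO, with median log2 fold changes of -0.46 and -0.84 in these comparisons. After subtraction of those medians Cdon stood at -0.89 and -0.77, and the latter no longer reached the limit on the fold.

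Gas1, a lipid-anchored co-receptor, gave 7580 and 8575 normalized counts in labelled Cry/Per/Nr1d_KO, 9356 and 10320 in labelled Cry/Per_KO, and 19071 and 15906 in Per/Nr1d_KO (Entrez Gene 14451, chr13:60174405-60177535). The Per/Nr1d_KO libraries lay above the others but also differed most from each other. Gas1 rose by a log2 fold change of 1.11 ± 0.077 relative to labelled Cry/Per/Nr1d_KO (edgeR adjusted p = 3.0e-09) and of 0.83 ± 0.076 relative to labelled Cry/Per_KO (adjusted p = 6.9e-08). The latter passed the limit on the fold only narrowly, and the call was lost without Per/Nr1d_KO replicate 1 (0.69) or labelled Cry/Per_KO replicate 1 (0.76), in DESeq2 (0.80), and in edgeR's test against the limit itself (glmTreat, adjusted p = 0.63). The non-coding gene Gm48488 lies on the opposite strand over 19.9% of the Gas1 exon bases, and since the strand setting of the counting was not stated, reads of these could be joined.

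Smo, the membrane protein that passes the signal on, varied little. It gave 8950 and 8578 normalized counts in labelled Cry/Per/Nr1d_KO, 12471 and 13345 in labelled Cry/Per_KO, and 8187 and 8103 in Per/Nr1d_KO (Entrez Gene 319757, chr6:29735497-29761366). The labelled Cry/Per_KO libraries were highest and did not overlap with the rest. Smo was above labelled Cry/Per/Nr1d_KO there by 0.56 ± 0.046, and Per/Nr1d_KO was below labelled Cry/Per_KO by a log2 fold change of -0.66 ± 0.046, with edgeR adjusted p of 3.6e-08 and 2.4e-09 but folds under the limit. Per/Nr1d_KO and labelled Cry/Per/Nr1d_KO differed by -0.11 ± 0.047 (adjusted p = 0.051).

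Gli1, the GLI factor that acts only as an activator and whose own transcription depends on the pathway, was the scarcest of its family. It gave 232 and 212 normalized counts in labelled Cry/Per/Nr1d_KO, 67.9 and 90.3 in labelled Cry/Per_KO, and 79.9 and 75.0 in Per/Nr1d_KO (Entrez Gene 14632, chr10:127329882-127341579). The labelled Cry/Per/Nr1d_KO libraries stood above the other 4, whose ranges overlapped. Gli1 was lower than there in labelled Cry/Per_KO (log2 fold change -1.48 ± 0.15, edgeR adjusted p = 4.8e-07) and in Per/Nr1d_KO (-1.53 ± 0.15, adjusted p = 2.7e-07). Per/Nr1d_KO and labelled Cry/Per_KO differed by -0.05 ± 0.19 (adjusted p = 0.81). Only the labelled Cry/Per/Nr1d_KO libraries held more than 100 normalized counts, so Gli1 entered the test through the group in which it was high. Arhgap9 and Gm47200 lie on the opposite strand over 8.06% of its exon bases.

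Gli2, the main activator of the response, followed Ptch1. Its normalized counts were 694 and 634 in labelled Cry/Per/Nr1d_KO, 508 and 559.7 in labelled Cry/Per_KO, and 3175 and 2893 in Per/Nr1d_KO (Entrez Gene 14633, chr1:118834061-119054405). Again the Per/Nr1d_KO libraries stood apart from the other 4. Gli2 rose 4.55-fold relative to labelled Cry/Per/Nr1d_KO (log2 fold change 2.19 ± 0.076, edgeR adjusted p = 6.6e-13) and 5.67-fold relative to labelled Cry/Per_KO (2.50 ± 0.079, adjusted p = 1.4e-13). The other two lines differed by -0.32 ± 0.086, under the limit on the fold.

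Gli3, the main repressor in unstimulated cells, gave 8503 and 8719 normalized counts in labelled Cry/Per/Nr1d_KO, 12135 and 11800 in labelled Cry/Per_KO, and 8780 and 8503 in Per/Nr1d_KO (Entrez Gene 14634, chr13:15463723-15730026). As for Smo, the labelled Cry/Per_KO libraries were highest. The log2 fold change was 0.47 ± 0.043 between labelled Cry/Per_KO and labelled Cry/Per/Nr1d_KO, 0.00 ± 0.043 between Per/Nr1d_KO and labelled Cry/Per/Nr1d_KO (edgeR adjusted p = 0.93), and -0.47 ± 0.043 between Per/Nr1d_KO and labelled Cry/Per_KO. None reached the limit on the fold.

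**Figure D1:**
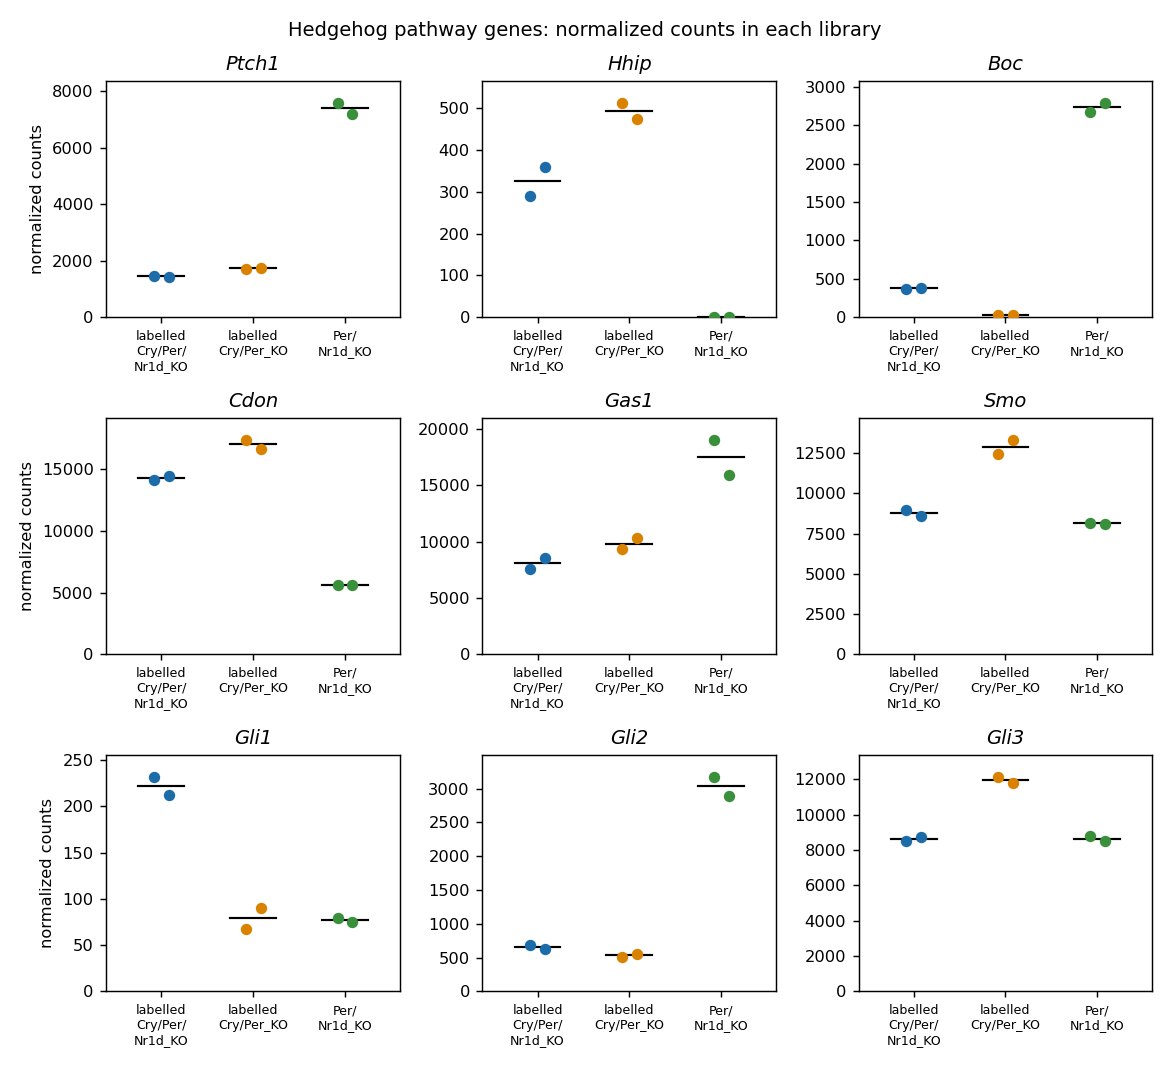
Normalized counts (vertical axes, linear and starting at 0) of the 9 genes in each of the 6 libraries; points are libraries, lines are means of 2 libraries, and blue, orange and green mark the 3 lines. Ptch1, Boc, Gas1 and Gli2 were highest and Hhip and Cdon lowest in Per/Nr1d_KO, whereas Gli1 was highest in the libraries labelled Cry/Per/Nr1d_KO.

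The comparison of labelled Cry/Per_KO with labelled Cry/Per/Nr1d_KO addresses the effect of endogenous NR1D, and its direction depends on the labels. The Arntl and Cry1 levels and the table names go against the labels and favour the exchanged reading, in which Gli1 and Boc are the genes called higher in Cry/Per_KO, by 1.48 and 3.60 on the log2 scale. By the labels, 2 of the 9 genes were called, Gli1 and Boc, both lower in labelled Cry/Per_KO, and 0 were called higher by edgeR or DESeq2. All 9 had an unadjusted edgeR p under 0.05, 6 of them in the direction of higher, so it was the limit on the fold that kept the others out. Of all genes tested, 16.8% were called in this comparison, 7.86% higher and 8.95% lower, so the share called among the 9 was close to that of all genes. The median size of the log2 fold change was 0.47 over the 9 genes and 0.34 over all genes.

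The comparison of Per/Nr1d_KO with Cry/Per/Nr1d_KO addresses the effect of endogenous CRY. Which pair serves as its reference depends on the same labels, so both are given, and the one that the Arntl and Cry1 levels and the table names favour is labelled Cry/Per_KO. By the labels, 7 of the 9 genes were called, with Ptch1, Gli2, Boc and Gas1 higher and Gli1, Hhip and Cdon lower. Of all genes, 20.7% were called, 11.3% higher and 9.35% lower. The median size of the log2 fold change was 1.53 over the 9 genes and 0.34 over all genes. Relative to labelled Cry/Per_KO, which is the Cry/Per/Nr1d_KO reference in the exchanged reading, 6 were called, the same 4 higher and Hhip and Cdon lower, where 29.0% of all genes were called, 15.2% higher and 13.8% lower. The median size was 1.60 over the 9 genes and 0.46 over all genes. Since the 9 genes were chosen with earlier results of these data known, their excess over all genes is a description and not a test. Both comparisons use the same Per/Nr1d_KO libraries. In the exchanged reading Gli1 is not called in the comparison that addresses CRY (-0.05), whereas the other 6 genes are called in both readings, with the limits given above for Gas1 and Cdon relative to labelled Cry/Per_KO.

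**Figure D2:**
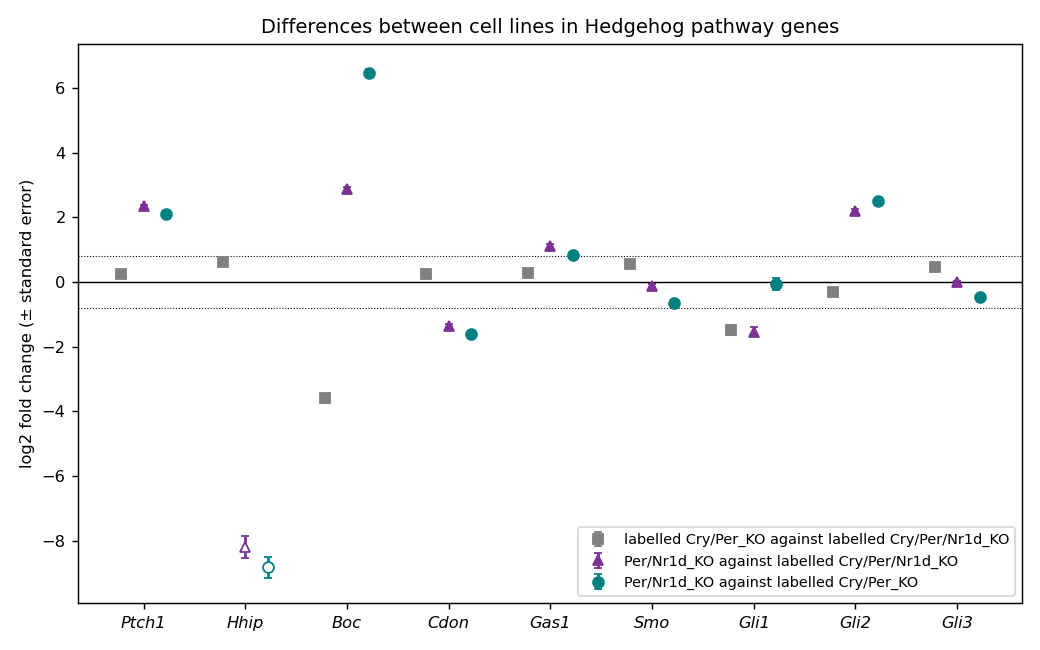
Log2 fold changes (vertical axis) with standard errors (bars, smaller than most symbols) of the 9 genes in the 3 comparisons, given by symbol; dotted lines mark the limit on the fold, at 0.81 in either direction. Open symbols for Hhip are fitted values that depend on the prior count, since Per/Nr1d_KO held 2 reads in all. Boc passed the limit in all 3 comparisons, and Smo and Gli3 in none.

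Within a library, genes can be compared after division by their exon length, as normalized counts per kilobase. Among the GLI factors Gli3 was the most abundant in every library, but its lead over Gli2 differed. Gli3 made up 86.3% and 87.6% of the family's summed level per kilobase in labelled Cry/Per/Nr1d_KO, 94% and 93% in labelled Cry/Per_KO, and 67.9% and 69.2% in Per/Nr1d_KO. Gli2 made up 8.84% and 8%, 4.93% and 5.53%, and 30.8% and 29.5% in the same order. Gli1 took between 1.08% and 4.83% of the family. The level of Gli3 was thus 9.76 and 11 times that of Gli2 in labelled Cry/Per/Nr1d_KO, 19.1 and 16.8 times in labelled Cry/Per_KO, and 2.2 and 2.34 times in Per/Nr1d_KO.

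Gas1 and Cdon together made up nearly all co-receptor transcripts per kilobase in the labelled Cry/Per_KO and Cry/Per/Nr1d_KO libraries, with Gas1 between 56.6% and 61.1% and Cdon between 38.8% and 42.2%. In Per/Nr1d_KO, Gas1 stood at 82.7% and 79.6% and Cdon at 9.56% and 11.1%. Boc took 1.84% and 1.73% in labelled Cry/Per/Nr1d_KO, 0.123% and 0.124% in labelled Cry/Per_KO, and 7.71% and 9.31% in Per/Nr1d_KO. Even where it was highest, Boc stayed below Cdon and Gas1. The level of Ptch1 per kilobase was 0.0798 and 0.0813 times that of Smo in labelled Cry/Per/Nr1d_KO, 0.0666 and 0.0629 times in labelled Cry/Per_KO, and 0.45 and 0.431 times in Per/Nr1d_KO, so that Smo transcripts outnumbered those of Ptch1 in every library.

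**Figure D3:**
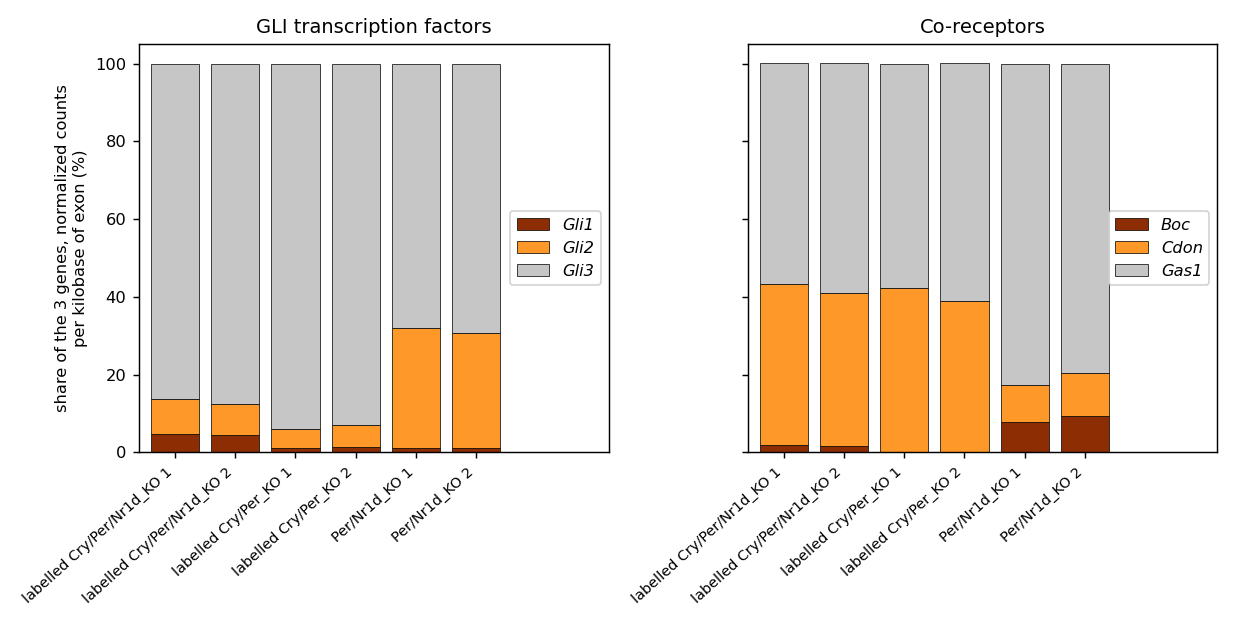
Share of each gene (vertical axis, percent) in the summed normalized counts per kilobase of its family, GLI factors on the left and co-receptors on the right, with 1 bar per library. The Gli2 and Gas1 shares were largest and the Cdon share smallest in Per/Nr1d_KO.

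A list of 58 other genes of the pathway was examined in 5 groups, of which 50 genes were abundant enough to be tested. In the order labelled Cry/Per_KO against labelled Cry/Per/Nr1d_KO, Per/Nr1d_KO against labelled Cry/Per/Nr1d_KO, and Per/Nr1d_KO against labelled Cry/Per_KO, 7, 12 and 16 of them were called. These counts were made up of 1, 5 and 6 higher and 6, 7 and 10 lower. With the labels exchanged, the first becomes 6 higher and 1 lower in Cry/Per_KO, and the other two counts change places. The shares called lay near the shares of all genes called (16.8%, 20.7% and 29.0%). The 8 genes too scarce to be tested included Shh, Ihh, Dhh, Scube1, Scube2, Mycn and Nkx2-2. The ligands themselves were scarce: Shh gave at most 1 read, Ihh at most 20 and Dhh at most 18 in any library. Of the 3 tested genes of ligand release, Hhat and Scube3 changed, and both were high in Per/Nr1d_KO. The untested Scube1 and Scube2 were instead highest in labelled Cry/Per/Nr1d_KO. Scube1 gave 57.7 and 77.7 normalized counts there, 1.11 and 0 in labelled Cry/Per_KO, and 0 and 1.58 in Per/Nr1d_KO. Scube2 gave 20.4 and 28.9, 3.34 and 2.95, and 3.8 and 3.95 in the same order. Hhat, which attaches palmitate to the ligands, gave 134 and 137 normalized counts in labelled Cry/Per/Nr1d_KO, 99.1 and 113 in labelled Cry/Per_KO, and 963 and 872 in Per/Nr1d_KO. Scube3, a secreted protein of a family that carries the ligands off the membrane, gave 706 and 641, 144 and 150.2, and 2984 and 2808, the same order of lines as Boc.

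Of 5 tested receptors and binding proteins, Lrp2 and Gpc3 were called in each comparison, where 16.8%, 20.7% and 29.0% of all genes were called. Lrp2, an endocytic receptor that binds SHH, gave 2679 and 2723 normalized counts in labelled Cry/Per/Nr1d_KO, 854 and 865 in labelled Cry/Per_KO, and 29.2 and 28.4 in Per/Nr1d_KO. Gpc3, a glypican that competes with PTCH1 for the ligand, gave 553 and 508, 1.11 and 1.96, and 6.34 and 8.68, and was thus near 0 outside the libraries labelled Cry/Per/Nr1d_KO, through which alone it passed the filter on low counts. Its summed reads were 340-fold lower in labelled Cry/Per_KO than there (95% interval 116 to 1650, counting error only), and the call between Per/Nr1d_KO and labelled Cry/Per_KO rests on 16 and 3 reads, a ratio of 4.97 (1.42 to 26.6).

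Of 16 genes of signal transduction, 0, 1 and 3 were called in the 3 comparisons by edgeR and likewise by DESeq2, although 12, 10 and 11 had an unadjusted edgeR p under 0.05. These genes had a median size of the log2 fold change of 0.17, 0.26 and 0.26, beside 0.34, 0.34 and 0.46 over all genes, of which 16.8%, 20.7% and 29.0% were called. Sufu, the inhibitor that holds GLI proteins in the cytoplasm, and Kif7, the kinesin of the ciliary tip, ran from 1084 to 1505 and from 788 to 857 normalized counts and were not called. Stk36, a kinase homologous to Drosophila Fused, rose in Per/Nr1d_KO by 1.36 ± 0.09 and 0.95 ± 0.087 relative to labelled Cry/Per/Nr1d_KO and labelled Cry/Per_KO, respectively. Efcab7 (-0.88 ± 0.088) and Csnk1a1 (-0.83 ± 0.045) fell in Per/Nr1d_KO relative to labelled Cry/Per_KO. Relative to labelled Cry/Per/Nr1d_KO they stood at -0.36 ± 0.09 and -0.71 ± 0.045 (edgeR adjusted p = 0.0023 and 1.1e-09), under the limit on the fold. With the medians of their chromosomes subtracted, Stk36 (0.69), Efcab7 (-0.68) and Csnk1a1 (-0.38) no longer passed the limit relative to labelled Cry/Per_KO.

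Of 19 ciliary genes, 2, 3 and 5 were called, which is no larger a share than over all genes (16.8%, 20.7% and 29.0%). Mks1, a protein of the ciliary transition zone, gave 171 and 172 normalized counts in labelled Cry/Per/Nr1d_KO, 17.8 and 21.6 in labelled Cry/Per_KO, and 338 and 334 in Per/Nr1d_KO, again in the order shown by Boc. Ift88, needed to build the cilium, gave 786 and 751, 861 and 839, and 1475 and 1521. Tulp3, which brings membrane proteins into the cilium, gave 5419 and 5183, 6343 and 6781, and 2966 and 2919. Ift88 rose and Tulp3 fell in Per/Nr1d_KO in both comparisons. Dync2h1, the motor of retrograde transport, was the 1 gene of the wider list that was called higher in labelled Cry/Per_KO than in labelled Cry/Per/Nr1d_KO (1.11 ± 0.048), and Cc2d2a was lower in Per/Nr1d_KO than in labelled Cry/Per_KO (-1.20 ± 0.055). With the medians of their chromosomes subtracted, Ift88 stood at 0.45 and 0.20, Tulp3 at -0.77 and -0.75 and Dync2h1 at 0.74, and none of these 5 values passed the limit on the fold.

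Of other genes reported as Hedgehog targets, none was called higher with Ptch1 in Per/Nr1d_KO. Of 7 tested, 2, 4 and 4 were called in the 3 comparisons, all of them lower by the labels, where 8.95%, 9.35% and 13.8% of all genes were called lower. With the labels exchanged, the 2 of the first comparison, Foxf1 and Ccnd1, are higher in Cry/Per_KO. Foxf1, a forkhead factor of mesenchyme, gave 496 and 545 normalized counts in labelled Cry/Per/Nr1d_KO, 201 and 234 in labelled Cry/Per_KO, and 7.6 and 13.4 in Per/Nr1d_KO. Ccnd1, which encodes cyclin D1, gave 27777 and 27621, 12421 and 12804, and 2441 and 2402. Ccnd2, which encodes cyclin D2, gave 28778 and 28809, 44870 and 45546, and 3440 and 3198. These 3 were lowest in Per/Nr1d_KO, as Hhip was, and these genes also respond to pathways other than Hedgehog. Bcl2 was the fourth gene called in Per/Nr1d_KO. The untested Mycn gave 12.4 and 14.4 normalized counts in labelled Cry/Per/Nr1d_KO, 63.4 and 95.2 in labelled Cry/Per_KO, and 0 and 0.789 in Per/Nr1d_KO. The untested Nkx2-2 gave 16.9 and 26.7 in labelled Cry/Per/Nr1d_KO and 0 in every other library. Foxf2, Foxl1 and Snai1 were not called, with log2 fold changes of 0.01, 0.27 and -0.06 in Per/Nr1d_KO relative to labelled Cry/Per/Nr1d_KO, of -0.75, -0.33 and -0.29 relative to labelled Cry/Per_KO, and of 0.77, 0.60 and 0.22 between labelled Cry/Per_KO and labelled Cry/Per/Nr1d_KO.

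**Figure D4:**
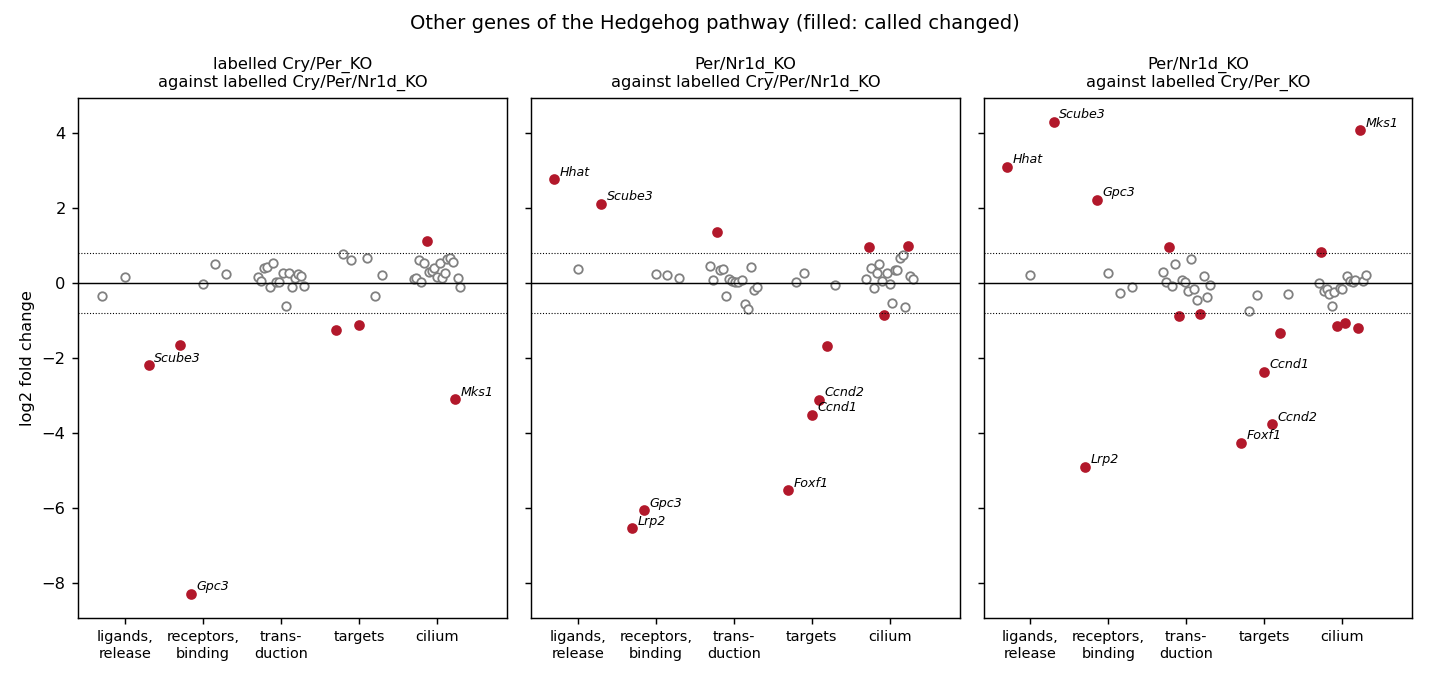
Log2 fold changes (vertical axis) of the 50 tested genes of the wider list in 5 groups, with 1 panel per comparison; filled points were called, dotted lines mark the limit on the fold, and called genes beyond 2 on the log2 scale are named. The fitted value of Gpc3 against labelled Cry/Per/Nr1d_KO in the left panel depends on the prior count, since labelled Cry/Per_KO held 3 reads. The target genes called in Per/Nr1d_KO all lie below 0.

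The patterns of Ptch1 and Gli1 over the 6 libraries were set against those of all tested genes outside the 9, as the Euclidean distance between log2 CPM values centred on each gene's mean. Baiap2l1 (distance 0.103), Mecom (0.129) and Adamts6 (0.147) were most like Ptch1. Mecom, for instance, gave 1031 and 1045 normalized counts in labelled Cry/Per/Nr1d_KO, 1308 and 1267 in labelled Cry/Per_KO, and 5725 and 5646 in Per/Nr1d_KO. Slc25a33 (0.233), Spry1 (0.334) and Efna2 (0.344) were most like Gli1. Spry1, an inhibitor of receptor tyrosine kinase signalling, gave 245 and 222, 75.7 and 90.3, and 79.9 and 99.4, which are levels close to those of Gli1.

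Each gene was set beside the 10 nearest tested genes on either side. In Per/Nr1d_KO relative to labelled Cry/Per/Nr1d_KO, the median log2 fold change of these 20 neighbours was 0.21 for Ptch1, -0.16 for Gli2, -0.33 for Boc, -0.04 for Hhip and -0.60 for Cdon. Ptch1 and Gli2 lay above the highest of their neighbours (0.97 and 0.95), Boc lay above its highest (2.56) by less, and Hhip lay below the lowest (-4.60). Cdon lay within the range of its neighbours, as did Gas1. Relative to labelled Cry/Per_KO, Boc stood at 6.47 beside a neighbour at 4.84, whereas the median of its neighbours was -0.39.

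**Figure D5:**
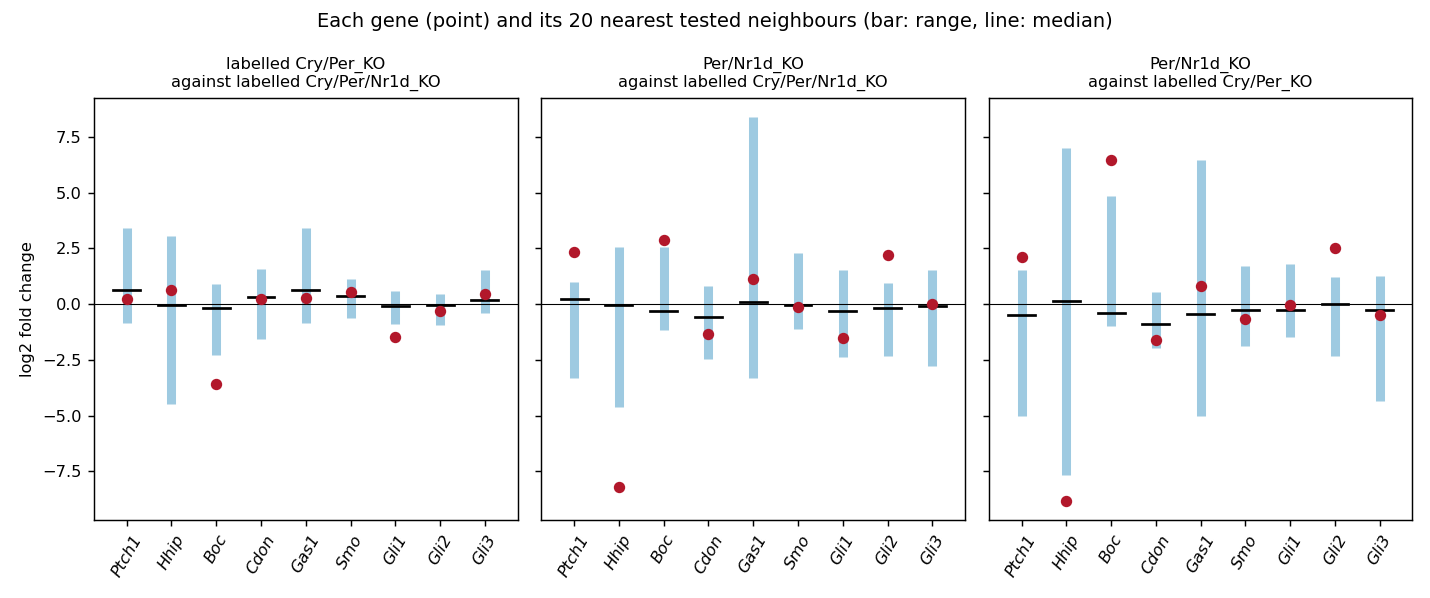
Log2 fold change (vertical axis) of each of the 9 genes (red point) beside its 20 nearest tested genes on the chromosome (bar from lowest to highest, black line at the median), with 1 panel per comparison. In the middle panel Ptch1, Gli2 and Boc lie above and Hhip below the range of their neighbours, while Cdon and Gas1 lie inside it.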

How the data were processed

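RNA-seq was analysed for 6 libraries, 2 of each of 3 MEF lines (poly-A RNA, stranded libraries, single-end reads of 50 bases). The authors aligned them with STAR to mm10, used featureCounts, and deposited raw counts per Entrez Gene ID; the strand setting, the annotation and the handling of multi-mapping reads are not given in the sources used here. Their DESeq2 1.22.2 tables (mean counts, log2 fold changes, standard errors, p-values) were not used. Symbols, gene spans and promoters came from RefSeq (GRCm38.p6), with a symbol for 93% of the 27179 IDs, and exons from GENCODE vM21.

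Tests used R 4.3.3 with edgeR 4.0.16 (main) and DESeq2 1.42.0 (alternative). Genes averaging 100 or more normalized counts were tested in 1 quasi-likelihood fit of all 6 libraries (TMM, 3 groups, no block), with Benjamini-Hochberg adjustment. Called genes had an adjusted p under 0.05 and a log2 fold change above 0.81 in size, the limit used by the study. A standard error is the log2 fold change divided by the square root of F. The biological coefficient of variation was 0.0393, and with 2 libraries per line p-values measure the spread between RNA preparations of 1 line. The libraries of a line differed by more than sampling noise (chi-square per degree of freedom 8.07 to 16.8). At totals from 53764390 to 85927236, intervals and the floor of 3 reads cover counting error only, since reads carry no molecular identifiers. Analysis code was tested on simulated data.

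Groups followed the genotype labels, with the exchange of the conflicting pairs as an alternative. The table names and the Arntl and Cry1 levels favour that exchange. The 9 genes, the wider list, the tests and the alternatives were chosen with earlier results of these data known. Named were the 9 genes, and in the wider list up to 3 called genes of each group with the largest log2 fold change per comparison, the 3 genes most like Ptch1 and Gli1, and the clock genes; Bcl2, Foxf2, Foxl1, Snai1, Sufu, Kif7 and genes too scarce to be tested were named outside that rule after their values were seen. The values of 1 gene of the wider list are not reported here. Alternatives covered the scaling, the filter, the fold limit, the test, the libraries fitted, a replicate block, chromosome medians and exchanged labels.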

Additional observations from a re-analysis of the deposited data

How the results depend on the processing

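Of 458 values of the 9 genes under the alternatives, 417 kept their direction and their side of the threshold. These values are not independent, and some could not differ. The settings without a fold limit and with chromosome medians subtracted reuse p-values of the main fit. The study's criteria reuse the DESeq2 fold changes, and exchanged labels only turn values or swap them between comparisons. The count of the 9 genes called between labelled Cry/Per_KO and labelled Cry/Per/Nr1d_KO was 2, and it was 1 under the study's criteria (DESeq2, adjusted p under 1e-22) and 9 without a limit on the fold. In Per/Nr1d_KO it went from 7 to 4 relative to labelled Cry/Per/Nr1d_KO and from 6 to 4 relative to labelled Cry/Per_KO under the study's criteria, which lost Gli1, Hhip and Gas1 in the former and Hhip and Gas1 in the latter. Without a limit on the fold, the wider list gave 38, 38 and 39 calls in the 3 comparisons, and without a filter on low counts it gave 11, 18 and 19. All genes called numbered 2006, 2468 and 3457, and 9118, 9042 and 9793 without the fold limit, 3808, 4576 and 5590 without a filter, 3311, 3912 and 4996 with a mean of at least 10, and 1150, 1802 and 2600 under the study's criteria. The study's criteria change the tool and the p limit together. DESeq2 at an adjusted p under 0.05 called 2, 7 and 5 of the 9 genes and 2004, 2463 and 3462 of all genes. Gas1 (0.80) in the third comparison was the gene lost there. The other losses among the 9 genes appeared only at the p limit of 1e-22. Against the limit on the fold itself (glmTreat), the wider list gave 7, 10 and 11 calls and the 9 genes 2, 7 and 5, Gas1 being lost in the third comparison, where all genes gave 1411, 2032 and 2841.

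Leaving out each library in turn left 2 and 7 of the 9 genes called in the first and second comparisons and between 5 and 6 in the third, where Gas1 was lost without labelled Cry/Per_KO replicate 1 or Per/Nr1d_KO replicate 1. Gli1 in Per/Nr1d_KO relative to labelled Cry/Per_KO ran from -0.23 without labelled Cry/Per_KO replicate 1 to 0.18 without replicate 2, and it was not called in either case. In the fit of the compared groups alone, Gli1 was under the filter there and was not tested. Gli3 in Per/Nr1d_KO relative to labelled Cry/Per/Nr1d_KO had no direction to keep: it stood at 0.00, at -0.01 in DESeq2 and under the study's criteria, between -0.02 and 0.02 without a library, at -0.21 after subtraction of its chromosome's median and at -0.47 with exchanged labels, never called. Subtraction of chromosome medians gave 6, 12 and 11 calls in the wider list and 1640, 2328 and 2766 over all genes. Of the calls in the wider list, 6, 10 and 10 were shared with the main fit. The subtraction turned Ptch1 (-0.11), Cdon (-0.12) and Gas1 (-0.06) between labelled Cry/Per_KO and labelled Cry/Per/Nr1d_KO, none of them called. Exchanged labels turned all 9 values there, to -0.24 (Ptch1), -0.56 (Smo), 1.48 (Gli1), 0.32 (Gli2), -0.47 (Gli3), -0.61 (Hhip), 3.60 (Boc), -0.25 (Cdon) and -0.29 (Gas1). Median-of-ratios scaling moved the median of all genes by at most 0.010 in size.

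With the replicate number as a block, 2, 7 and 6 of the 9 genes and 7, 12 and 16 of the wider list were called, as without it. Deviations of same-numbered libraries correlated at -0.211, -0.024 and -0.102, and no source says that a number marks a shared batch.

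With 2 libraries per line each spread rests on 2 values, and the depth limits what can be said of Hhip in Per/Nr1d_KO and of the ligands.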
